A study of Homo sapiens with 14 samples.

Results

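The 4 libraries described here are the controls of a larger experiment, 2 from MDA-MB-231 cells transfected with a control siRNA and 2 from MDA-MB-231 cells given DMSO, out of 14 libraries in all. They were chosen by their labels alone, and the values below compare control siRNA with DMSO. MDA-MB-231 is an established human breast cancer cell line of mesenchymal character, grown in DMEM:F12 with 10% FBS. The other 10 libraries, 2 per group, come from the same line after YAP/TAZ siRNA (mix 1 and mix 2, 48 h), BRD siRNA (mix A and mix B, 72 h) or the BET inhibitor JQ1 (1 µM, 24 h). The labels name Lipofectamine RNAiMAX, a lipid reagent that carries siRNA into cells, for the targeting siRNAs. They give neither the sequence of the control siRNA, nor the dose of DMSO, nor a harvest time for either control. The siRNA, the reagent, the time in culture and the solvent therefore cannot be told apart in this comparison. No library of untouched cells was analysed here.

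An siRNA is a short double-stranded RNA that Argonaute proteins load and use to silence matching transcripts. Double-stranded RNA can also be met by innate sensors such as DDX58 (RIG-I), IFIH1 (MDA5) and the endosomal receptor TLR3, whose signalling induces interferons and interferon-stimulated genes. The lipid carrier reaches the cell through endosomes and lysosomes and adds lipid to its membranes. A control siRNA serves to absorb such effects in a knockdown experiment, as DMSO does for a compound dissolved in it.

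Values are given as scaled RPM, the reads of a gene relative to an effective library size. The control siRNA libraries held 18002737 and 15741695 reads in genes and the DMSO libraries 32559505 and 37311326, so depth moved with the groups. Log2 fold changes are control siRNA minus DMSO after adding 1 to each value, log2(value + 1), so that those of weakly expressed genes come out too small. A gene is called where limma's adjusted p is under 0.05. Whether the replicates were grown apart is not stated in the labels, and the p-values thus rest on library-to-library spread that could be technical. In bulk RNA, fewer cells that express a gene and less of its RNA per cell cannot be told apart.

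Of 13674 genes tested, 7409 (54.2%) were called. Of all tested, 3478 (25.4%) were called higher and 3931 (28.7%) lower with control siRNA than with DMSO. Changes of at least 2-fold were fewer and mostly upward, 349 genes higher (2.55%) and 106 lower (0.775%). With plain RPM (library totals with no scaling factor) in place of the deposited scaling, the median of all genes shifted by 0.108 (log2) and the calls split 4879 higher to 2570 lower, or 65.5% higher against 46.9%. With every library thinned to the depth of the shallowest, 3260 genes were higher and 3568 lower.

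**Figure D1:**
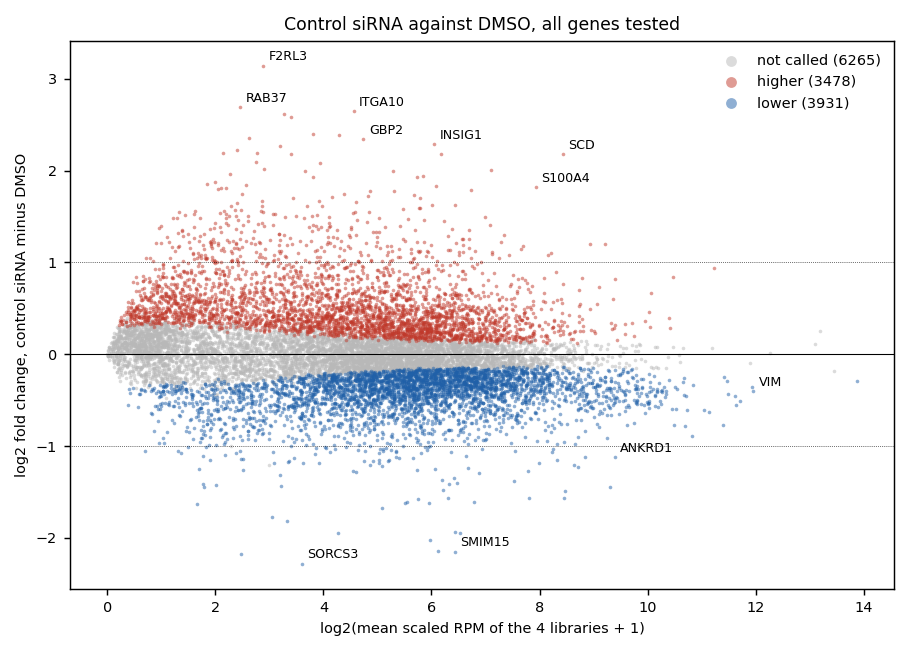
Log2 fold change of control siRNA minus DMSO (vertical) against log2 of the mean scaled RPM of the 4 libraries plus 1 (horizontal), 1 point per gene tested, coloured by limma call, with dotted lines at 2-fold. The 3478 higher genes reach further from 0 than the 3931 lower ones, and F2RL3 lies at the top at 3.14.

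Of the targeted genes described here, WWTR1 differed between the controls, and YAP1, BRD2 and BRD3 did not pass the test. YAP1 was at 190.03 and 174 with control siRNA and 191 and 181 with DMSO, so the groups overlapped (-0.03, limma adjusted p = 0.691). BRD2 stood at 251 and 252 against 241 and 257 (limma adjusted p = 0.834) and BRD3 at 32.5 and 29.7 against 27.98 and 28.97 (limma adjusted p = 0.238, and 0.0284 with plain RPM). WWTR1, which encodes the co-activator TAZ, was at 135 and 126 with control siRNA and at 81.8 and 82.3 with DMSO, 1.59-fold higher (0.67, SE 0.0644, limma adjusted p = 3.59e-08). VIM, the intermediate filament vimentin, was at 3323 and 3514 with control siRNA and 4457 and 4591 with DMSO, 1.32-fold lower with control siRNA (-0.40, limma adjusted p = 1.43e-04).

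The largest rises fell on genes that were low with DMSO. F2RL3, the thrombin receptor PAR4, was at 10.4 and 14.03 with control siRNA and 0.421 and 0.552 with DMSO, 25.1-fold higher (3.14, SE 0.147, limma adjusted p = 7.70e-13). RAB37, a small GTPase of secretory vesicles, went from 0.486 and 0.442 with DMSO to 7.301 and 9.75 (2.69). ITGA10, an integrin chain that binds collagen, went from 4.798 and 6.27 to 36.9 and 42.4 (2.64). These genes were picked for groups that did not overlap, as in 76.4% of all genes tested, and for the size of the rise. That their control siRNA libraries lay several-fold above both DMSO libraries is thus part of the choice. The next rises were DMBT1 (2.61), a secreted scavenger receptor protein, the complement factor properdin CFP (2.58), the multidrug transporter ABCC3 (2.40), the secretory protein AGR2 (2.39) and the pro-apoptotic BCL2-family member BMF (2.36). TCP11L2 (2.27), GBP4 (2.22), the chemerin receptor CMKLR1 (2.20) and CYTH4 (2.19) followed. GBP2, INSIG1 and ABCA1 complete the 15 largest rises and are described with their groups.

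The largest falls were smaller and included both matrix or signalling genes and genes of basic cell functions. SORCS3, a sorting receptor, was at 3.41 and 2.89 with control siRNA and 19.6 and 18.6 with DMSO, 6.07-fold lower (-2.28, SE 0.131, limma adjusted p = 1.48e-11). PTX3, a secreted pattern recognition protein, went from 113 and 112 to 26.96 and 22.8 (-2.14). G0S2, an inhibitor of triglyceride lipase, went from 102 and 98.01 to 22.1 and 25.8 (-2.02). The DMSO libraries lay at least 3-fold above both control siRNA libraries in each of the 3, which the choice by non-overlap and size fixes in part. MYCT1 (-2.18), SMIM15 (-2.15), RGS4 (-1.95), a brake on G protein signalling, DESI2 (-1.94), the matricellular protein NOV (-1.82) and the kinase DCLK1 (-1.77) also fell. So did FAM196B (-1.67), the RNA polymerase I subunit CD3EAP (-1.62), KISS1 (-1.61), CSGALNACT2 (-1.61) and GNPNAT1 (-1.61), an enzyme of hexosamine synthesis. LOC284801 belongs to the 15 by the rule, but its replicates spread widely, 16.8 and 66.3 against 94.8 and 186. Its call (-1.95, SE 0.636, limma adjusted p = 0.0138) was lost without control siRNA replicate 1 (-0.99, limma adjusted p = 0.260) and without DMSO replicate 2 (-1.47, limma adjusted p = 0.121). It was also lost with no variance trend (-1.95, limma adjusted p = 0.0711) and with DESeq2 (-1.77, DESeq2 adjusted p = 0.125).

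**Figure D2:**
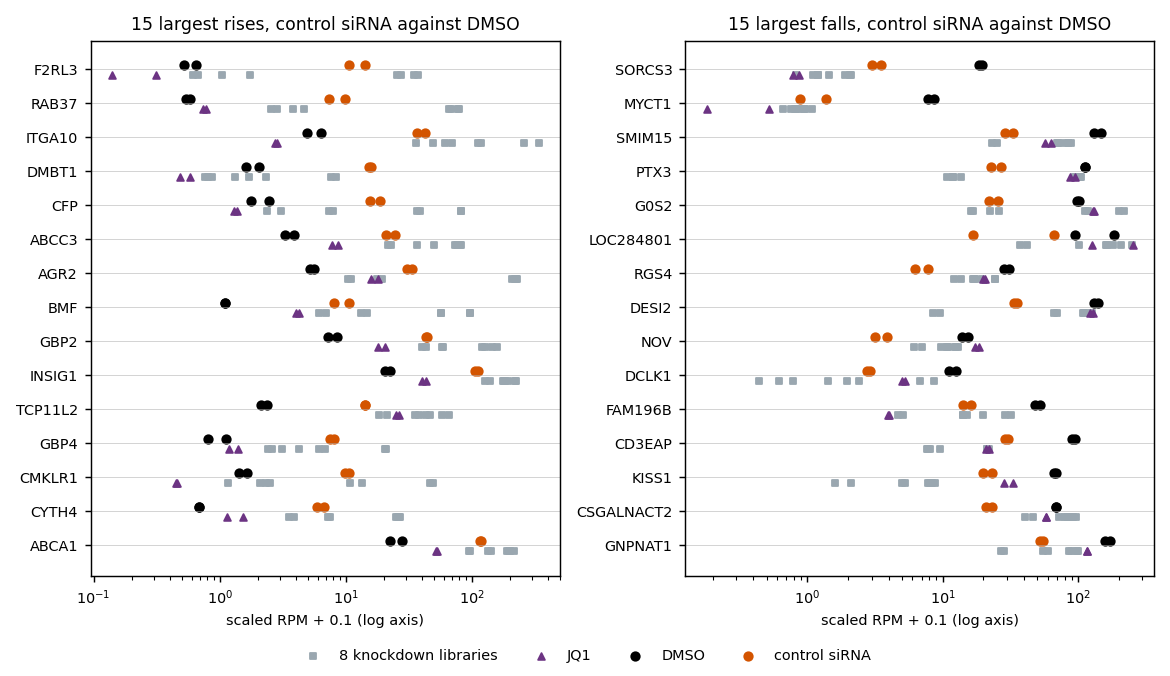
Scaled RPM plus 0.1 on a log axis for the 15 largest rises (left) and 15 largest falls (right), 1 point per library: control siRNA orange, DMSO black, the 8 knockdown libraries grey squares, JQ1 purple triangles. Control siRNA and DMSO do not overlap in any of the 30 genes, since the rule required it, while the knockdown libraries spread widely, for F2RL3 from 0.511 to 37.3.

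Most interferon-stimulated genes tested were higher with control siRNA, and 11 of the 51 did not pass. Of 51 members tested, 37 were higher and 3 lower (72.5% and 5.88%, beside 25.4% and 28.7% of all genes). The median log2 fold change was 0.67 against -0.01 over all genes tested. GBP2, an interferon-induced GTPase, was at 43.3 and 43.9 with control siRNA and 7.197 and 8.48 with DMSO, 5.56-fold higher (2.34, SE 0.0781, limma adjusted p = 8.31e-15). PARP14, an ADP-ribosyltransferase, was at 86.2 and 79.8 against 24.6 and 25.2 (1.70). SAMD9L, an antiviral factor, stood at 26.3 and 26.6 against 6.94 and 7.84 (1.71). These 3 were raised in both control siRNA libraries, with little spread between replicates. They were picked by limma's moderated statistic, which favours large differences with little spread, so that pattern is part of the choice. The groups did not overlap in 76.4% of all genes tested. GBP3 (1.35), IFI35 (1.35), GBP1 (1.19), OAS2 (1.40), PARP9 (1.34), XAF1 (1.62) and the factors STAT2 (0.91), IRF9 (0.97) and IRF1 (1.03) also rose. IFIT1, which binds viral RNA, was at 21.8 and 20.3 with control siRNA and 19.3 and 18.6 with DMSO (0.15, limma adjusted p = 0.1599). ISG15, a ubiquitin-like modifier, was at 31.8 and 35.1 against 31.2 and 28.8 (0.15, limma adjusted p = 0.144). OAS1 (0.31), OASL (0.34), IRF7 (0.21), USP18 (0.22), MX2 (-0.05) and EIF2AK2 (-0.02) likewise did not pass. HERC5 (-0.53) and IFIT5 (-0.41) were among the 3 members that fell.

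Promoter sequences are shown for 2 members that rose, PARP14 and GBP3, and 2 that did not pass, IFIT1 and ISG15, because these genes respond to interferon through a shared DNA element. Each window runs from 250 bases before to 50 after the gene's start, from RefSeq on GRCh38.p14, and capitals mark matches to GAAA, any 2 bases and GAAA, the core of the interferon-stimulated response element, on either strand. The windows are chr3:122680589-122680888, plus strand, for PARP14, chr1:89022817-89023116, minus strand, for GBP3, chr10:89392373-89392672, plus strand, for IFIT1 and chr1:1013247-1013546, plus strand, for ISG15.
PARP14: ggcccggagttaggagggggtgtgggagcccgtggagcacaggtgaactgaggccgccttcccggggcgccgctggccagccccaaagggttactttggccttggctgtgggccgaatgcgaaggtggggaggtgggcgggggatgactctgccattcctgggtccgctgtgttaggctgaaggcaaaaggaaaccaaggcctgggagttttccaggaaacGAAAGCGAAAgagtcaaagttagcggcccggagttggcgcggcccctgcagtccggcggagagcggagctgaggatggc
GBP3: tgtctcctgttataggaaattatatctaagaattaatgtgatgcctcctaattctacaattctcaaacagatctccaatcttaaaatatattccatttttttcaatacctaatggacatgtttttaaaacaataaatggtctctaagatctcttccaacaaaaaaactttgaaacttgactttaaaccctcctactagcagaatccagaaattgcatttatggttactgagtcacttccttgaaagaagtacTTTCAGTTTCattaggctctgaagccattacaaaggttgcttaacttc
IFIT1: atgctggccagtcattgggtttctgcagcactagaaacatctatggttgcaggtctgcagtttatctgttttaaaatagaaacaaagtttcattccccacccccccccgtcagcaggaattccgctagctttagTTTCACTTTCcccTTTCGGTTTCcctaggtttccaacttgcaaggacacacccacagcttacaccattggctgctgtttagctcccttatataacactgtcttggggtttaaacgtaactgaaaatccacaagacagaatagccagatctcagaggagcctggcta
ISG15: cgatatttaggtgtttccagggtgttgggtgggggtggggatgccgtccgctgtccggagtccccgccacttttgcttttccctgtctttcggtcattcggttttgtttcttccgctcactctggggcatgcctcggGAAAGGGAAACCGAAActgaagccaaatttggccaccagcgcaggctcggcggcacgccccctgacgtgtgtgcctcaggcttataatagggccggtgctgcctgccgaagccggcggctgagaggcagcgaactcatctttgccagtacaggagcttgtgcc
PARP14 and GBP3 hold 1 match each, starting 29 bases before and 2 bases after the start. IFIT1 and ISG15 hold 2 each, at 116 and 103 and at 113 and 107 bases before it, and those of ISG15 overlap. SAMD9L and IFI35 hold 0 matches in this window and also rose. Of 41 members with an entry, 27 hold the motif (65.9%), against 288 of 9921 promoters of tested genes (2.9%). Among those 27, 20 were called higher and 2 lower, and among the 14 members without it 13 were higher and 0 lower. Of 261 other genes whose promoter holds the motif, 83 were higher (31.8%) and 72 lower, beside 2442 of 9619 without it (25.4%). A match is a run of letters and does not show that a factor binds there.

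Antigen presentation genes rose as a group with control siRNA. Of 23 tested, 20 were higher and 0 lower (87% against 25.4% of all genes), with a median of 0.89. HLA-B, a class I heavy chain, was at 170.4 and 207 with control siRNA and 87.7 and 85.3 with DMSO, 2.18-fold higher (1.11, SE 0.0748, limma adjusted p = 1.61e-10). HLA-C was at 130.03 and 154 against 72.6 and 71.9 (0.96). Both genes thus lay above both DMSO libraries in each control siRNA library, though the groups did not overlap in 76.4% of all genes tested. Class I genes are near-identical in parts, and the sources used here do not say how shared reads were counted. The peptide-loading factor TAPBP (1.09), the trimming enzyme ERAP1 (1.05), the transporter TAP1 (0.93) and the immunoproteasome subunits PSMB9 (1.5), PSMB10 (1.15) and PSMB8 (0.92) rose with them. NLRC5, which drives class I genes, rose by 0.70, while TAP2 (-0.04) and HLA-E (0.02) did not pass.

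Of 20 sensing genes tested, 9 were higher and 4 lower (45% and 20%, beside 25.4% and 28.7% of all genes), with a median of 0.12. DDX58, IFIH1 and TLR3, which sense double-stranded RNA, were among the 9, and the 4 that fell are not named here. DDX58 was at 114 and 113 with control siRNA and 54.7 and 56.9 with DMSO (1.01, SE 0.0563, limma adjusted p = 9.43e-12). IFIH1 was at 7.19 and 8.37 against 2.79 and 2.79 (1.21) and TLR3 at 12.04 and 10.7 against 5.12 and 4.28 (1.12). The groups did not overlap in any of the 3, as in 76.4% of all genes tested. DHX58 (1.18) and the kinase IKBKE (0.81) also rose. The adaptor MAVS rose slightly, from 122 and 125 to 135 and 138 (0.14, limma adjusted p = 0.0289), while TBK1, IRF3 (-0.05) and TICAM1 (-0.13) did not pass. EIF2AK2 and OAS1, which also bind double-stranded RNA, did not pass, as given above. IFNB1 and IFNL1 are not in the table of values and were not analysed here.

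In the machinery that makes and uses small RNAs, 7 of 15 genes tested were higher and 4 lower (46.7% and 26.7%), and the share lower is near the 28.7% of all genes. DICER1, the nuclease that makes small RNAs, was at 294 and 278 with control siRNA and 123 and 128 with DMSO, 2.28-fold higher (1.18, SE 0.0575, limma adjusted p = 1.30e-12). Both control siRNA libraries were above all other 12 libraries. The Argonaute AGO4 (0.81) and the Argonaute partners TNRC6A (0.56) and TNRC6B (0.60) rose, and the export GTPase RAN fell (-0.53).

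Inflammatory genes rose in part. Among 28 NF-kB and cytokine genes, 17 were higher and 2 lower (60.7% and 7.14%, beside 25.4% and 28.7% of all genes), with a median of 0.43. CSF1, a macrophage growth factor, was at 152 and 177 with control siRNA and 45.5 and 47.99 with DMSO, 3.53-fold higher (1.79, SE 0.0671, limma adjusted p = 3.39e-14). CSF2, which encodes GM-CSF, was low, at 8.26 and 8.19 against 1.46 and 1.68 (1.84). BIRC3 (1.23), an inhibitor of cell death that NF-kB induces, complement factor CFB (1.43), TRAF1 (1.13) and ICAM1 (0.76) rose too. The NF-kB subunit NFKB1 fell, from 68.99 and 68.9 to 42.2 and 38.2 (-0.77, limma adjusted p = 5.59e-08), and RELA did not pass (-0.01).

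Sterol-regulated genes were among the most clearly raised. Of 28 cholesterol genes tested, 19 were higher and 3 lower (67.9% and 10.7%, beside 25.4% and 28.7% of all genes), with a median of 0.50. INSIG1, the sterol-sensing brake on SREBP processing, was at 106 and 112 with control siRNA and 22.5 and 20.5 with DMSO, 5.06-fold higher (2.29, SE 0.0635, limma adjusted p = 6.18e-16). The synthesis enzymes did not move as a block. MSMO1 (1.29), TM7SF2 (1.25), HMGCS1 (0.98), IDI1 (0.65) and FDFT1 (0.56) rose, whereas SQLE (0.09), FDPS (-0.07), CYP51A1 (-0.03) and NSDHL (-0.08) did not pass and EBP fell (-0.24). Genes that act against cholesterol retention or uptake rose as well. ABCA1, which exports cholesterol, was at 119 and 116 against 22.4 and 28.00, 4.65-fold higher (2.18), and MYLIP, a ubiquitin ligase that limits lipoprotein uptake, rose by 1.18. SREBP factors are known to act at sites that contain TCACNCCAC. This motif was found, on either strand, in 1 of 20 member promoters with an entry and in 109 of 9921 of all (1.1%), and in neither the INSIG1, ABCA1 nor MYLIP window.

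Among 27 genes of fatty acids and lipid droplets, 16 were higher and 5 lower (59.3% and 18.5%, beside 25.4% and 28.7% of all genes), with a median of 0.18. SCD, the desaturase that makes oleic acid, was at 569 and 555 with control siRNA and 116 and 131 with DMSO, 4.54-fold higher (2.18, SE 0.0607, limma adjusted p = 6.18e-16). SREBF1 (1.26), PDK4 (1.56), LPIN1 (1.12) and FADS2 (0.61) rose. The lipid-binding protein FABP5 fell (-1.16), as did ACSL1 (-0.60) and G0S2, and ACLY did not pass (-0.05). Of 45 lysosome and autophagy genes, 22 were higher and 10 lower (48.9% and 22.2%, median 0.12), beside 25.4% and 28.7% of all genes. LAPTM5, a lysosomal membrane protein, was at 61.1 and 61.1 against 14.5 and 14.7 (1.99). The protease gene CTSC went the other way, at 191 and 179 against 539 and 502 (-1.49), while CTSD rose by 1.20 and GABARAPL1 by 1.23.

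Ribosome biogenesis and MYC target genes were lower with control siRNA, every one of the 41 tested (28.7% of all genes were lower). The median was -0.56. NOP56, a core protein of small nucleolar ribonucleoproteins, was at 320.2 and 339.6 with control siRNA and 545 and 543 with DMSO, 1.65-fold lower (-0.72, SE 0.0552, limma adjusted p = 1.13e-09). BOP1, a factor of the large ribosomal subunit, was at 119 and 119 against 230.5 and 236 (-0.96). MYC itself was at 98.3 and 97.7 against 152 and 155 (-0.64). PES1 (-0.72), DKC1 (-0.74) and NOP16 (-0.92) were similar in size. With plain RPM 38 of the 41 were still called lower.

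Members of the replication, mitosis and histone lists were mostly lower by modest amounts, and none of them changed by 2-fold. Outside these lists the histone gene HIST2H2BA (-1.01) and MIS18A (-1.06) were lower by at least 2-fold. Of 48 DNA replication genes, 37 were lower and 2 higher (77.1% and 4.17%, beside 28.7% and 25.4% of all genes, median -0.30). MCM6, a subunit of the replicative helicase, was at 66.6 and 65.6 with control siRNA and 117 and 118 with DMSO (-0.82, SE 0.08996, limma adjusted p = 2.02e-07), and TYMS, thymidylate synthase, fell by 0.93. Of 42 mitosis genes, 27 were lower (64.3%) and 0 higher (median -0.27). CCNB1, the mitotic cyclin B1, was at -0.72 and the anaphase activator CDC20 at -0.73. Of 33 clustered histone genes, 27 were lower (81.8%) and 0 higher (median -0.38), with HIST1H3A at -0.69. Reads shared by near-identical histone genes leave single values uncertain. The replication count went down to 22 lower with plain RPM, and the histone count to 14 with quantile normalization. The CDK inhibitor CDKN1A (p21) was higher, at 46.7 and 55.6 against 24.4 and 24.5 (1.03, limma adjusted p = 9.24e-11).

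Growth-related housekeeping lists lay on the same side. Nuclear-encoded oxidative phosphorylation genes had 27 of 40 lower (67.5%, beside 28.7% of all genes) and 0 higher (median -0.23), for example CYC1 (-0.54). With plain RPM that list had 16 lower and 5 higher. Heat shock and chaperone genes had 13 of 20 lower and 2 higher (65% and 10%, beside 28.7% and 25.4% of all genes, median -0.27). HSP90AA1 was at 1267 and 1151 against 2057 and 2093 (-0.78), and HSPA8 stood at -0.55.

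YAP/TAZ target genes, the readouts of the wider study, already differed between its 2 kinds of control. Of 30 tested, 20 were lower and 4 higher with control siRNA (66.7% and 13.3%, beside 28.7% and 25.4% of all genes). The median was -0.27. ANKRD1 was at 441 and 403 with control siRNA and 934 and 899.8 with DMSO, 2.17-fold lower (-1.12, SE 0.0706, limma adjusted p = 6.00e-11). CTGF was at 201 and 184 against 415 and 393 (-1.06) and CYR61 at 229 and 213 against 374 and 378 (-0.77). In each of the 3 both control siRNA libraries lay below both DMSO libraries, though the groups did not overlap in 76.4% of all genes tested. IGFBP3, an IGF-binding protein, showed the largest fall of the list (-1.40), and the coagulation receptor F3 fell by 1.12. The kinase gene NUAK2 rose most (0.60), ahead of TGFB2 (0.34) and PTPN14 (0.31).

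Of 49 matrix and adhesion genes, 24 were higher and 13 lower (49% and 26.5%, median 0.20), and the share lower is near the 28.7% of all genes. ITGB8, an integrin chain that activates latent TGF-beta, was at 19.1 and 19.1 with control siRNA and 4.12 and 3.95 with DMSO (2.00, SE 0.101, limma adjusted p = 2.48e-12). COL6A1 (1.46), ITGA5 (1.08) and the protease PLAU (0.82) rose, while the hyaluronan receptor CD44 was at 162 and 146 against 359 and 343 (-1.19). Actin and SRF target genes had 10 of 28 higher and 8 lower (35.7% and 28.6%, the latter near the share of all genes), and the filamin FLNC fell by 1.21. AP-1 and immediate early genes had 12 of 28 higher and 6 lower (42.9% and 21.4%, beside 25.4% and 28.7% of all genes, median 0.12). KLF4 was at 1.06 and FOSL2 at 0.82.

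In the list for the unfolded protein and integrated stress responses, 10 of 37 genes were higher and 13 lower (median -0.05, and 0.08 with plain RPM). These shares, 27% and 35.1%, stand beside 25.4% and 28.7% of all genes, and the share higher is near that of all genes. DDIT4, an mTOR inhibitor induced by stress, was at 87.02 and 93.96 with control siRNA and 20.2 and 25.8 with DMSO (1.94, SE 0.0792, limma adjusted p = 9.26e-14). Among 23 p53 targets, 11 were higher and 4 lower (47.8% and 17.4%, median 0.08), with TP53INP1 at 1.93 and GADD45A at -0.82. Hypoxia and glycolysis genes had 14 of 35 higher and 9 lower (40% and 25.7%, median 0.07), with the share lower near that of all genes. Within that list the glucose transporter SLC2A3 (1.75) and VEGFA (1.26) rose, and the vasoactive peptide gene ADM (-1.25) and the hexokinase HK2 (-0.73) fell. NRF2 and oxidative stress genes had 6 of 27 higher and 11 lower (22.2% and 40.7%, median -0.09, and 0.02 with plain RPM). The share higher is near that of all genes, and GCLM was at -0.72 and NQO1 at -0.58. Of 6 metallothionein-list genes tested, 2 were higher and 1 lower (33.3% and 16.7%). Of 24 BET, elongation and BET inhibitor response genes, 6 were higher and 8 lower (25% and 33.3%), both near the shares of all genes. Within that list CDK6 was at 0.83 and HEXIM1 at -0.43. The medians of the actin, BET and metallothionein lists lay within 0.03 of 0 and changed sign between scalings.

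Markers of other cell states and types moved in part. Of 18 luminal epithelial markers tested, 9 were higher and 3 lower (50% and 16.7%, beside 25.4% and 28.7% of all genes, median 0.27). AGR2 was at 30.4 and 33.6 with control siRNA and 5.51 and 5.08 with DMSO (2.39) and TFF3, a mucosal peptide, at 4.96 and 6.44 against 0.908 and 0.884 (1.81). Keratins KRT8 (-0.25) and KRT18 (-0.28) fell slightly, so the luminal list did not move as 1 block. Of 18 basal and mesenchymal markers, 1 was higher and 9 lower (5.56% and 50%, median -0.14). The one that rose was S100A4, a calcium-binding protein, at 357 and 400.3 against 105 and 108 (1.82), and SNAI2, the factor Slug, fell by 1.01. Of 15 leukocyte markers 5 could be tested, and PTPRC, the gene of the pan-leukocyte antigen CD45, is not in the table. LYZ, the lysozyme gene, was at 5.76 and 6.26 against 2.04 and 2.24 (1.16), CSF1R at 3.25 and 3.61 against 1.33 and 1.22 (0.96) and CD14 at 0.693 and 1.02 against 0.259 and 0.442 (0.46). The CD14 call was lost without control siRNA replicate 2 (0.33, limma adjusted p = 0.123) or DMSO replicate 1 (0.36, limma adjusted p = 0.117). CD68 was lower by a margin that passed only narrowly (-0.15, limma adjusted p = 0.0495) and was lost without any 1 of the 4 libraries. Of 14 fibroblast and endothelial markers 4 could be tested, with PDGFRB (0.99), COL1A1 (1.16) and PECAM1 (0.59) higher and KDR lower (-0.86). The part of other cells in the results above was not tested.

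The other 10 libraries show which of these differences recur. The knockdown groups were also transfected and the JQ1 group was not, so the mean of the 4 knockdown groups minus JQ1 uses libraries that the control comparison does not. It differs in the targeted genes, the drug and the times as well, and 5120 genes (37.4%) were higher and 5299 (38.8%) lower in it. Of the 349 genes at least 2-fold higher with control siRNA than with DMSO, 318 (91.1%) were called higher and 19 lower in that second comparison. Of the 106 at least 2-fold lower, 67 (63.2%) were lower and 19 higher. In 165 of the 349 (47.3%), all 10 transfected libraries lay above all 4 DMSO and JQ1 libraries, as in 756 of all genes tested (5.53%). The same held downward for 32 of the 106 (30.2%), beside 701 of all genes (5.13%), and for 17 with plain RPM. Both sets were chosen for control siRNA against DMSO, which is part of these patterns, so nothing is read from the difference between their shares and those of all genes.

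INSIG1, ABCA1, SCD, GBP2, GBP3, PARP14, HLA-B, CSF1, RAB37, ITGA10 and ITGB8 were among the genes higher in all 10 transfected libraries. GBP2 spanned 40.4 to 157 in the 8 knockdown libraries (median 89.6) and stood at 20.5 and 17.9 with JQ1. INSIG1 spanned 128 to 223 (median 181) against 43.2 and 39.96 with JQ1. HLA-B spanned 191 to 294 against 136 and 118. These genes were listed because all 10 transfected libraries lay above DMSO and JQ1, so that pattern is the choice itself. DDX58 showed the pattern too, but not every gene named above did. With BRD siRNA, TLR3 (0.806 to 2.22) and LAPTM5 (3.10 to 5.98) lay below both DMSO libraries. IFIH1 did so with BRD mix A, at 1.66 and 2.24. SAMD9L was at 8.26 to 10.6 with BRD siRNA, above DMSO but below JQ1 (11.9 and 14.9). IGFBP3, DKK1, KISS1, ANKRD1 and NOV were lower in all 10. As lists, 38 of 51 interferon-stimulated genes were higher and 8 lower in the second comparison (median 0.83). Antigen presentation had 19 of 23 higher and 1 lower (median 1.00) and cholesterol genes 19 of 28 and 6 (median 0.56). In that comparison 37.4% of all genes were higher and 38.8% lower. Of the lists lower with control siRNA, DNA replication had 41 of 48 lower and 2 higher there, and clustered histones 26 of 33 and 3. Ribosome biogenesis had 33 of 41 lower and 1 higher. YAP/TAZ targets had 19 of 30 lower and 8 higher, in a comparison that includes YAP/TAZ siRNA. Oxidative phosphorylation had 25 of 40 lower and 3 higher, and heat shock 13 of 20 and 5. Mitosis genes went the other way there, with 39 of 42 higher and 2 lower (median 0.80). IFIT1 was at 34.5 to 55.6 in the knockdown libraries against 21.5 and 23.8 with JQ1 (0.98).

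**Figure D3:**
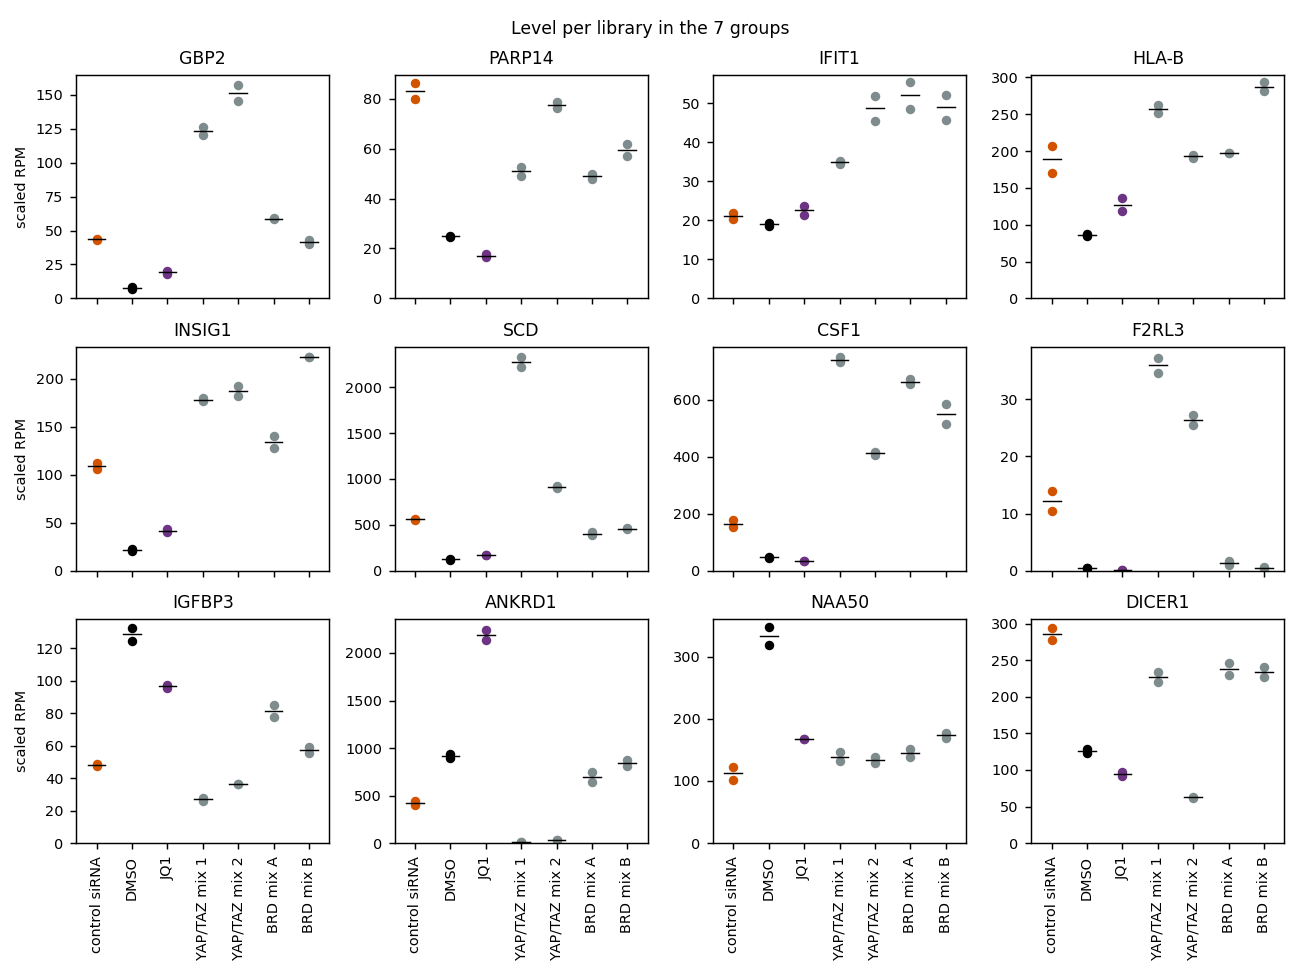
Scaled RPM per library (points) and group mean (bars) for 12 genes in the 7 groups. GBP2, HLA-B, INSIG1, SCD and CSF1 are higher in every transfected group than with DMSO or JQ1, IFIT1 lies between 18.6 and 21.8 in the 4 controls, and F2RL3 is high with control siRNA and YAP/TAZ siRNA but lies between 0.511 and 1.64 with BRD siRNA.

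Some differences set the control siRNA libraries apart from all others, including the other transfected ones. Of the 106 genes at least 2-fold lower, 17 (16%) were lower in both control siRNA libraries than in each of the other 12, as in 576 of all genes (4.21%). The number was 11 with plain RPM. They were RGS4, NOV, FAM222A, CSGALNACT2, UBE2G2, NAA50, MIR3648, BMPER, TMEM171, MRPL50, SSU72, VPS4B, INPP5A, TRNP1, IFT57, ZDHHC21 and TRAPPC6B, which were named after their values were seen. UBE2G2, a ubiquitin-conjugating enzyme, was at 26.2 and 25.9 with control siRNA and 79.7 and 80.1 with DMSO (-1.58), with 28.9 as the lowest knockdown library. NAA50, an N-terminal acetyltransferase subunit, was at 122 and 102 against 348 and 318 (-1.57), and the lowest knockdown library was at 128. CSGALNACT2, an enzyme of chondroitin sulfate synthesis, was at 21.00 and 22.9 against 68.9 and 69.5, and the lowest knockdown library was at 40.5. In UBE2G2 and NAA50 the lowest knockdown library was close to the control siRNA level, and in CSGALNACT2 it was clearly above it. Upward, 16 of the 349 (4.58%) were above all other 12 libraries, beside 394 of all genes (2.88%). The choice of the 106 and the 349 again fixes part of the pattern, and their shares are a description only. Among them were DMBT1, CSF2, PARP14, ACVR2B, BIRC3, GBP1, NR4A1 and DICER1. CSF2 was at 2.47 at most in the knockdown libraries and DMBT1 at 8.35 at most.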

How the data were processed

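Per the labels' protocols, a stranded total RNA kit that removes ribosomal RNA was used. Among the submitters' processing notes are HTSeq 0.6.0, TopHat2 2.0.5, CASAVA 1.8.4, R 3.0.0, edgeR and the build hg19, with no role or order. The sources used here do not give the annotation, the gene filter or the strand setting of the counting. The authors' deposited table holds 13734 genes by symbol in 14 columns, 1 per library. Its name calls the values CPM, but columns sum to different totals, so the deposited values were treated as a scaled signal in place of the planned CPM. Dividing each column by the value of 1 read gave whole reads for 100% of values at a tolerance of 0.01. The scaling factors behind the deposited values equalled TMM (trimmed mean of M-values) factors computed with edgeR 4.0.16, 1.04238 and 1.05535 for control siRNA and 0.947383 and 0.970543 for DMSO.

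Values were transformed to log2(value + 1), and 13674 genes that reached 1 in 2 or more libraries were kept. All 14 libraries, in 7 groups, entered 1 model of group means (limma 3.58.1 in R 4.3.3, variance trend on, 13.2 prior and 7 residual degrees of freedom). P-values are two-sided and adjusted by Benjamini-Hochberg over all genes tested. Alternatives covered pseudocounts, filters, scalings, a replicate block, the 4 libraries alone, edgeR, DESeq2 1.42.0, each library left out and reads thinned to 15741695 per library, the last, like leaving out knockdown or JQ1 libraries, chosen after the data were seen. In simulated data for control siRNA against DMSO (13237 genes), 81.2% of genes changed 1.5-fold and 93.8% of genes changed 2-fold were recovered. There 64 or 65 tested genes were changed at each size, and all others had equal means in every group. False calls numbered 12, or 6.35% of calls, a rate that does not carry over to data in which 54.2% of genes were called. Replicates differed by more than sampling noise (chi-square per gene 4.91 for control siRNA and 4.16 for DMSO).

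The comparison and the gene lists were chosen with earlier results of these data known. Named genes were the targeted genes, the 15 called genes that rose most and the 15 that fell most, where the groups did not overlap and the higher mean was at least 5, and up to 5 members per list by moderated statistic. Other members and the pattern across all libraries were chosen after their values were seen, as were the windows of IFIT1 and ISG15. Some genes under the rule are not reported here.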

Additional observations from a re-analysis of the deposited data

How the results depend on the processing

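The calls of control siRNA against DMSO, 3478 higher and 3931 lower, ran from 2756 to 3116 higher and from 3056 to 3507 lower when 1 of the 4 libraries was left out. With plain RPM 2570 genes were lower. The counts at 2-fold or more, 349 higher and 106 lower, depended on how low values are treated. They were 559 and 164 with a pseudocount of 0.25, 156 and 59 with a pseudocount of 4, 741 and 207 with edgeR and 683 and 204 with DESeq2, and plain RPM left 68 lower. Without 1 library they ran from 316 to 398 higher and from 105 to 129 lower. Knockdowns against JQ1 ran from 4422 to 5203 higher and from 4635 to 5391 lower without 1 library. With plain RPM, 22 DNA replication genes and 16 oxidative phosphorylation genes were lower, and with quantile normalization 14 histone genes.

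The replicate numbers link no shared source in the labels. Deviations of same-numbered control siRNA and DMSO libraries correlated at 0.218 across genes, and with a replicate block 3473 genes were higher and 3926 lower. Of 167 named genes, 7 changed their call under at least 1 setting, among them LOC284801, CD14 and CD68, and none of the 167 reversed under any setting run. CD68 was lost with the replicate block (-0.15, limma adjusted p = 0.0516), which changed no other named call. Control siRNA libraries were shallower, with 1 read worth 0.0533 and 0.0602 scaled RPM against 0.0324 and 0.0276 with DMSO.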
